A study of Mus musculus with 12 samples.

Results

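The Hox cluster genes were read on expression arrays of GADD34 knockout and wildtype mouse fibroblasts, with and without arsenite. A gene was taken as a member when a probe set of the full deposited table listed it as its single symbol and that symbol was Hox, a cluster letter from a to d and a paralog number. Where a gene had several such probe sets, only the brightest over the 12 arrays was kept. This gave 35 of the 39 Hox genes that RefSeq lists for the mouse, among 20753 genes measured in the same way. HoxA (chromosome 6) had 10 of its 11 genes, HoxB (chromosome 11) 9 of 10, HoxC (chromosome 15) 7 of 9 and HoxD (chromosome 2) 9 of 9. Hoxa6, Hoxb8, Hoxc11 and Hoxc12 had no single-symbol probe set.

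The 12 arrays were Affymetrix Mouse430_2 arrays, in 4 groups of 3. The KO arsenite group held homozygous knockout cells given 0.1 mM sodium arsenite, a thiol-binding compound, for 2 h. The KO untreated group held the same genotype without it. The WT arsenite and WT untreated groups were the wildtype counterparts. All groups were embryonic fibroblasts made immortal with SV40 large T antigen. The strain label of both genotypes names B6.129P2 with the Ppp1r15A tm1.1.Ajf allele and C57Bl/6, and the stage was embryos of 12.5 to 14.5 days. Ppp1r15a encodes GADD34, the stress-induced subunit that directs protein phosphatase 1 to phosphorylated eIF2-alpha. The labels do not say how many embryos or separately immortalised populations stand behind a genotype, so loss of GADD34 and any other difference between the KO and WT populations cannot be told apart. Each of 3 replicate experiments held all 4 groups, and p-values measure the spread between these samples.

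Hox genes encode homeodomain transcription factors that give cells their position along the body axis and, for the later paralogs, along the limb. They lie in 4 clusters that arose by duplication, so genes with the same paralog number in different clusters are relatives, and within a cluster genes nearer the low-number end are switched on earlier and further toward the head. Retinoic acid and caudal factors open the clusters in the embryo, Polycomb complexes keep inactive stretches silent, and MLL complexes maintain active ones. Fibroblasts keep much of the Hox pattern of the body region they came from when grown in culture.

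Array medians lay between 5.92 and 5.96 on the log2 scale, and arrays of a group correlated at 0.985 to 0.996 across genes. Ppp1r15a read 6.27, 6.71 and 5.88 in KO arsenite, 6.42, 6.34 and 6.20 in KO untreated, 12.24, 12.25 and 11.60 in WT arsenite and 8.45, 8.57 and 8.88 in WT untreated cells. The KO arrays were below all WT arrays, as the labels have it, though the labels do not place the deletion relative to this probe set. Of 11 fibroblast markers, 9 in the KO arsenite group and 10 in each other group had a mean over 5.35, the 40th percentile of all array values, which served as a guide to possible background. The summed log2 signal of these markers ran from 109 to 126 in KO arsenite, 110 to 125 in KO untreated, 110 to 114 in WT arsenite and 111 to 114 in WT untreated cells. Within the list Col1a2 was higher and Thy1 lower in KO cells in both conditions. Of the marker lists of other cell types, the neural list had 6 of 7 means over 5.35 in every group, the skeletal muscle list 3 of 5, the endothelial list 1 of 6, and the pluripotent or germ list 1 of 4. The epithelial list had 3 to 5 of 7 over it by group and the blood list 3 to 4 of 7. Under 5.35 in every group were Pecam1, Cdh5, Tek, Tie1 and Emcn of the endothelial list and Ptprc, Itgam and Adgre1 of the blood list. So were Cdh1 and Krt18 (epithelial), Myog and Myf5 (muscle), Sox2 (neural) and Pou5f1, Nanog and Ddx4 (pluripotent or germ). The other markers of these lists reached it in at least 1 group. What part such cells have in the Hox differences was not tested. The collagen-binding proteoglycan gene Dcn read 9.86 and 9.87 on the KO arrays of experiment 1 and 5.47 to 6.71 on the other KO arrays. In such bulk samples fewer cells of a type and less RNA per cell cannot be told apart.

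Promoter sequences are printed for the Hox genes with the largest change in a comparison, as far as the RefSeq promoter table (build GRCm38.p6) held them. Each is the 250 bases before a transcription start, on the gene's strand. Hoxd8 (chr2:74704365-74704614, plus strand) had the largest fall between KO and WT cells. Hoxa10 had the largest rise without arsenite, and the table gives it starts preceded by chr6:52234940-52235189 and chr6:52240855-52241104 (minus strand). Hoxa3 (chr6:52213068-52213317, minus strand) had the largest rise under arsenite, and Hoxa9 (chr6:52227371-52227620, minus strand) the largest fall with arsenite in KO cells. Capitals mark matches, on either strand, to TATAAA (the TATA box), CCAAT (the CCAAT box), TGATNNAT (a joint PBX and HOX site), TGACAG (a MEIS site) or the DR5 retinoic acid response element.
Hoxd8: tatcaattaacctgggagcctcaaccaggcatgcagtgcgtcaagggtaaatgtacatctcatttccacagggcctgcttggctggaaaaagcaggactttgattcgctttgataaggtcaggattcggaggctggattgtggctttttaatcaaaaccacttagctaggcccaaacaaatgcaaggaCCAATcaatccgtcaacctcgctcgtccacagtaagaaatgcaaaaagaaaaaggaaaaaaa
Hoxa10, nearer start: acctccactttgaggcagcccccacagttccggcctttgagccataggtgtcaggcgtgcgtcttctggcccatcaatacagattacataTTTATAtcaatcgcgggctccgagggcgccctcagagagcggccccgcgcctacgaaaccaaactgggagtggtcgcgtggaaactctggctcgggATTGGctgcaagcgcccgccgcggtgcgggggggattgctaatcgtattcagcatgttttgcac
Hoxa10, farther start: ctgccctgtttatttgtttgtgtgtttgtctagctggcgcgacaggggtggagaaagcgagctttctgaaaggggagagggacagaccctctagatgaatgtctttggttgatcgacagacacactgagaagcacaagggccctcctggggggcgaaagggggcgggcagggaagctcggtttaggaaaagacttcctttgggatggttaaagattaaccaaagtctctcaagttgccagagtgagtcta
Hoxa3: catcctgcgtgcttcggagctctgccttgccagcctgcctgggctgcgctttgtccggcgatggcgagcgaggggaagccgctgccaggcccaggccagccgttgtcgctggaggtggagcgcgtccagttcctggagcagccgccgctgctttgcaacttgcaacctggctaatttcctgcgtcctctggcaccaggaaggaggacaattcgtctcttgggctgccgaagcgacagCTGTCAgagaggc
Hoxa9: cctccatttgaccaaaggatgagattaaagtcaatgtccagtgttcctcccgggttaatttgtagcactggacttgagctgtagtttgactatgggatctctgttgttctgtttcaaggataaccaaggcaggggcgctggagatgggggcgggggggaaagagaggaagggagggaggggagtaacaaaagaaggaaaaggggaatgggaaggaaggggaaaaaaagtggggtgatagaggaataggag
The Hoxd8 window held a CCAAT box and the first Hoxa10 window a TATA box and a CCAAT box, both Hoxa10 matches on the opposite strand. A MEIS site on the opposite strand stood near the end of the Hoxa3 window, and the other windows printed held no match. Over the 22 windows that the table gives for 20 Hox genes, 12 held CCAAT, 3 TATAAA, 3 TGATNNAT, 2 TGACAG and 0 the DR5 element. The shares among all 32851 windows were 33.8% for CCAAT, 12.4% for TATAAA, 7.68% for TGATNNAT, 15.9% for TGACAG and 0.00913% for the DR5 element. The Hox windows held a median of 12.5 CpG dinucleotides (2 to 35), against 6 over all windows. The arrays measured RNA and not these windows, and the matches are letters only.

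Of the 35 members, 25 had a mean at or over 5.35 in at least 1 group, and 19 had it in all 4 groups. The other 10 were Hoxa11, Hoxa13, Hoxb1, Hoxb7, Hoxc8, Hoxc10, Hoxd1, Hoxd10, Hoxd11 and Hoxd12, whose arrays read between 2.89 and 5.32. Members over 5.35 were found in all 4 clusters. Hoxd10, Hoxd11 and Hoxd12, late paralogs that act in the limb and hindmost body, were not among them. Of other late paralogs, Hoxc13 and Hoxd13 had means over 5.35 in all 4 groups, and Hoxa10 and Hoxb13 in 2. The plot of array values shows the members that stood apart by genotype.

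**Figure D1:**
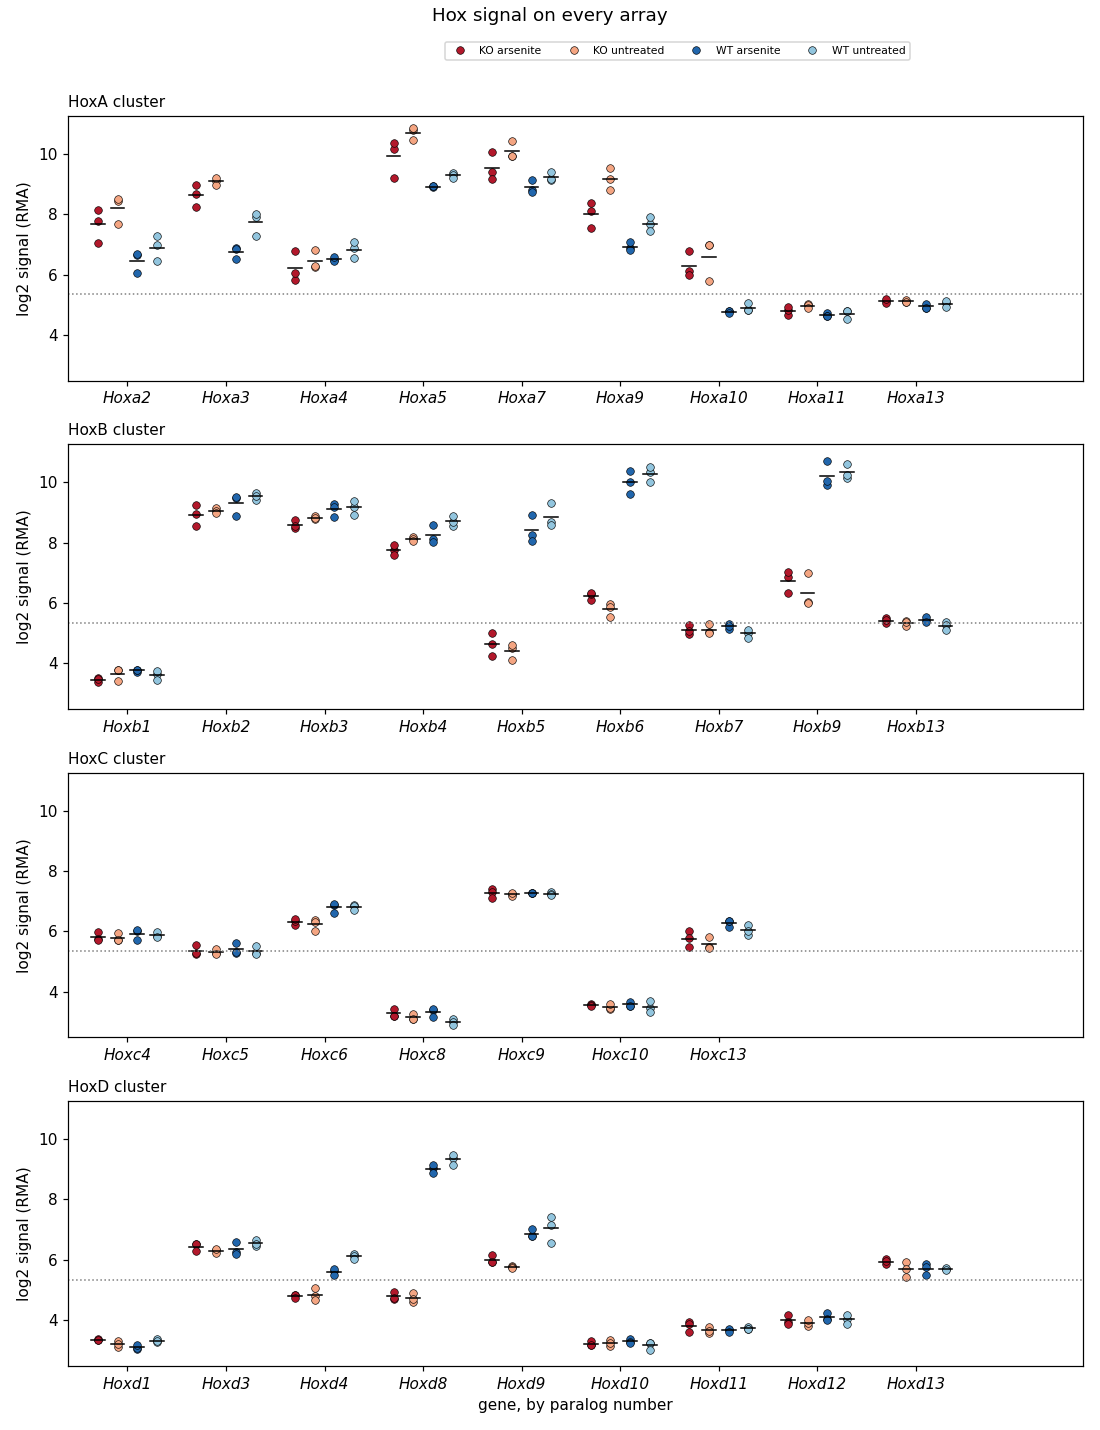
Log2 array values of 34 Hox genes, by cluster and paralog number, in KO arsenite, KO untreated, WT arsenite and WT untreated cells; each point is 1 array, short bars are group means and the dotted line is 5.35. Hoxb5, Hoxb6, Hoxb9 and Hoxd8 lie far lower in both KO groups than in both WT groups, and Hoxa3, Hoxa5, Hoxa9 and Hoxa10 lie higher.

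Untreated KO cells were set against untreated WT cells to see how the populations differed before any stress. In KO cells 7 HoxA genes were higher, and 4 HoxB, 3 HoxD and 1 HoxC genes were lower (limma, adjusted p under 0.05). The rises were of 0.84 to 1.68 on the log2 scale and the largest falls of 3.99 to 4.59. Thus 15 of 35 members passed, where 20.1% of all genes did, with 9.83% higher and 10.3% lower. The arrays of 20 members did not overlap between genotypes, 8 higher and 12 lower in KO cells, where 34.5% of all genes did not overlap (16.5% higher and 18.0% lower). The median difference of the members was -0.03, beside -0.01 over all genes. By cluster the median difference was 1.13 in HoxA, -0.48 in HoxB, -0.03 in HoxC and -0.12 in HoxD.

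**Figure D2:**
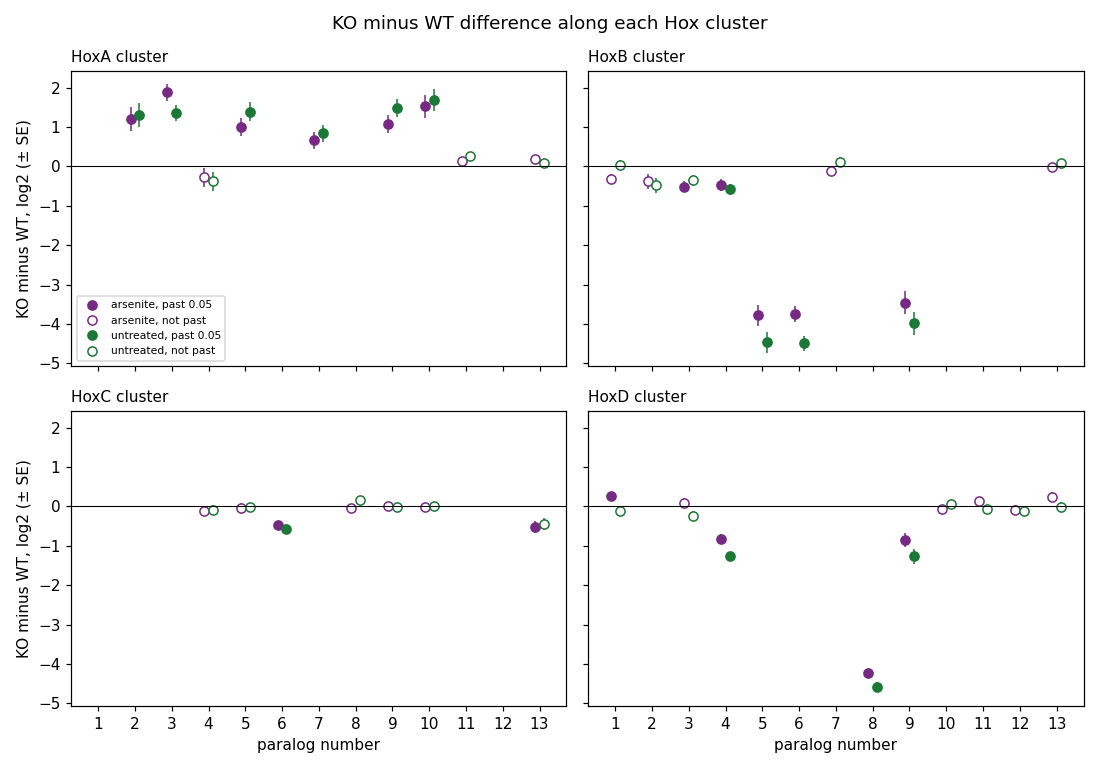
Log2 difference, KO minus WT, of 34 Hox genes by cluster and paralog number, untreated and under arsenite; points are limma estimates from 3 arrays a group, bars are standard errors and filled points passed an adjusted p of 0.05. The rises are in HoxA (Hoxa10 at 1.68 without arsenite), apart from Hoxd1 at 0.26 under arsenite, and the large falls are in HoxB and HoxD (Hoxd8 at -4.59 without arsenite).

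Among paralog numbers 1 to 4, 3 of 12 members rose and 2 fell; among 5 to 8, 2 of 9 rose and 4 fell; and among 9 to 13, 2 of 14 rose and 2 fell. Hoxa5 rose where Hoxb5 fell, and Hoxa9 rose where Hoxb9 and Hoxd9 fell. In paralog group 4, Hoxb4 and Hoxd4 fell, while Hoxa4 differed by -0.38 ± 0.24 (SE; adjusted p = 0.324, limma).

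In HoxB the large falls were those of Hoxb5, Hoxb6 and Hoxb9. Hoxb5, which acts in neural crest and lung, read 4.50, 4.11 and 4.59 in KO untreated cells, against 8.69, 8.59 and 9.31 in WT untreated cells. Hoxb6, a gene of the trunk and lateral plate mesoderm, read 5.98, 5.87 and 5.53 in KO untreated cells, against 10.32, 10.01 and 10.51 in WT untreated cells. Hoxb9, which patterns the thoracic skeleton, read 6.03, 6.00 and 6.99 in KO untreated cells, against 10.14, 10.23 and 10.60 in WT untreated cells. All KO arrays were far below all WT arrays for these genes. Hoxb5 fell by 4.46 ± 0.26 (SE; adjusted p = 5.92e-07, limma), a 22.0-fold lower signal. Its KO mean lay under 5.35, so this may be a lower bound. Hoxb6 fell by 4.49 ± 0.19 (adjusted p = 5.25e-08, limma), or 22.4-fold. Hoxb9 fell by 3.99 ± 0.29 (adjusted p = 3.01e-06, limma), or 15.9-fold. Ranked from the largest fall among the 20753 genes, Hoxb6 was 18, Hoxb5 20 and Hoxb9 32.

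Genes at the 3' side of HoxB, which are used furthest forward in the embryo, differed less. Hoxb4, a gene of the hindbrain and of blood progenitors, read 8.18, 8.12 and 8.07 in KO untreated cells, against 8.56, 8.69 and 8.87 in WT untreated cells, with no overlap. It fell by 0.58 ± 0.14 (SE; adjusted p = 0.0140, limma). Hoxb2 and Hoxb3, both hindbrain genes, differed by -0.48 ± 0.19 (adjusted p = 0.116, limma) and -0.35 ± 0.14 (adjusted p = 0.103). With the replicate experiment as a block their adjusted p was 0.0174 and 0.0421. Hoxb1, Hoxb7 and Hoxb13 differed by 0.04 to 0.12 and did not pass. The Hoxb7 probe set used here was under 5.35 throughout, but a probe set that lists Hoxb7 and Hoxb8 together, outside the rule and not tested, read 5.17, 5.50 and 5.49 in KO untreated cells, against 8.41, 8.26 and 8.66 in WT untreated cells. These arrays did not overlap and differed by -3.05 on average, and the set does not tell which of the pair it reads.

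HoxD held the largest fall of any member. Hoxd8, which acts in the trunk, read 4.61, 4.89 and 4.71 in KO untreated cells, against 9.37, 9.14 and 9.47 in WT untreated cells. It fell by 4.59 ± 0.12 (SE; adjusted p = 6.56e-10, limma), a 24.1-fold lower signal that may be a lower bound, with rank 15 from the largest fall among all genes. Hoxd9, a gene of the limb and trunk, read 5.81, 5.78 and 5.72 in KO untreated cells, against 7.16, 6.55 and 7.42 in WT untreated cells. Hoxd4, a hindbrain and neck gene, read 5.06, 4.82 and 4.68 in KO untreated cells, against 6.20, 6.13 and 6.04 in WT untreated cells. No KO array of either gene reached a WT array. Hoxd9 fell by 1.27 ± 0.18 (adjusted p = 0.000412, limma), and Hoxd4 by 1.27 ± 0.11 (adjusted p = 8.03e-06, limma). The KO mean of Hoxd4 lay under 5.35, so its fall may be a lower bound. Hoxd3, the neighbour of Hoxd4, differed by -0.24 ± 0.11 (adjusted p = 0.174, limma). Hoxd1, Hoxd10, Hoxd11, Hoxd12 and Hoxd13 differed by -0.12 to 0.07 and did not pass.

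HoxA went the other way. Hoxa10, a gene of the lumbar region, uterus and proximal limb, read 6.99, 6.96 and 5.80 in KO untreated cells, against 4.83, 4.82 and 5.06 in WT untreated cells. Hoxa9, known from trunk, limb and blood progenitors, read 8.80, 9.53 and 9.15 in KO untreated cells, against 7.66, 7.92 and 7.43 in WT untreated cells. Hoxa5, which acts in lung and neck skeleton, read 10.78, 10.45 and 10.85 in KO untreated cells, against 9.38, 9.31 and 9.21 in WT untreated cells. In each gene all KO arrays were above all WT arrays, and for Hoxa10 the array of experiment 3 stood below the other KO arrays. Hoxa10 rose by 1.68 ± 0.29 (SE; adjusted p = 0.00146, limma), or 3.21-fold, which may be a lower bound because its WT mean lay under 5.35. Hoxa9 rose by 1.49 ± 0.23 (adjusted p = 0.000686, limma), or 2.81-fold, and Hoxa5 by 1.39 ± 0.23 (adjusted p = 0.00132, limma).

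Genes toward the 3' side of HoxA rose as well. Hoxa3, needed for thymus, thyroid and parathyroid, read 9.09, 8.96 and 9.20 in KO untreated cells, against 7.91, 7.27 and 8.00 in WT untreated cells. Hoxa2, which sets the identity of the second pharyngeal arch, read 8.42, 7.69 and 8.49 in KO untreated cells, against 6.97, 6.44 and 7.26 in WT untreated cells. Neither gene had overlapping arrays, and for Hoxa2 the experiment 2 array was the lowest in both genotypes. Hoxa3 rose by 1.35 ± 0.21 (SE; adjusted p = 0.000809, limma) and Hoxa2 by 1.31 ± 0.31 (adjusted p = 0.0117, limma). Hoxa7, a thoracic gene, rose by 0.84 ± 0.22 (adjusted p = 0.0160, limma). Hoxa11 and Hoxa13, under 5.35 in all groups, differed by 0.26 and 0.08 and did not pass.

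In HoxC only Hoxc6, a gene of the thorax, passed. It read 6.03, 6.36 and 6.32 in KO untreated cells, against 6.86, 6.84 and 6.71 in WT untreated cells, without overlap, and fell by 0.56 ± 0.12 (SE; adjusted p = 0.00510, limma). Hoxc13, a hair and nail gene, differed by -0.46 ± 0.15 (adjusted p = 0.0520, limma; 0.0379 with the replicate block). Hoxc9, a thoracic gene, read 7.25, 7.17 and 7.27 in KO untreated cells, against 7.31, 7.25 and 7.20 in WT untreated cells, which overlapped. Hoxc4, Hoxc5, Hoxc8, Hoxc9 and Hoxc10 differed by -0.09 to 0.15.

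The arrays of each of the 15 genes did not overlap between genotypes, so the same direction in all 3 experiments followed from that. All 15 also passed with the replicate block, which called 18 members where it called 29.2% of all genes. Leaving out 1 array ended 3 of the 15 calls. Hoxa2 was lost without WT untreated replicate 2 (1.08, adjusted p = 0.0532, limma), and Hoxb4 without WT untreated replicate 3 (-0.50, adjusted p = 0.0595). Hoxa7 was lost without KO untreated replicate 3 (0.68, adjusted p = 0.0686, limma) and without WT untreated replicate 1 (0.79, adjusted p = 0.0594) or 2 (0.81, adjusted p = 0.0551).

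Several members were read by more than 1 probe set, 51 in all, with 12 members having several. Without arsenite the sets differed in the size of the change more than in its direction. For Hoxd8 the brightest set gave -4.59 and the other -3.30, and for Hoxb4 they gave -0.58 and -0.66. Hoxa5 gave 1.39 on the brightest set and 1.16 on the other. For Hoxa9 the values were 1.49 and 0.59, and for Hoxa10 they were 1.68 and 0.34. The 4 sets of Hoxa3 gave 1.35, 1.22, 0.27 and 0.25. Those of Hoxc6 gave -0.56, -0.20 and -0.21. The dimmer Hoxa10 set averaged 3.43 to 3.77 by group and the Hoxa3 set at 0.27 averaged 4.19 to 4.46, all under 5.35. The other dimmer sets of Hoxa3, Hoxa9 and Hoxc6 lay over it.

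**Figure D3:**
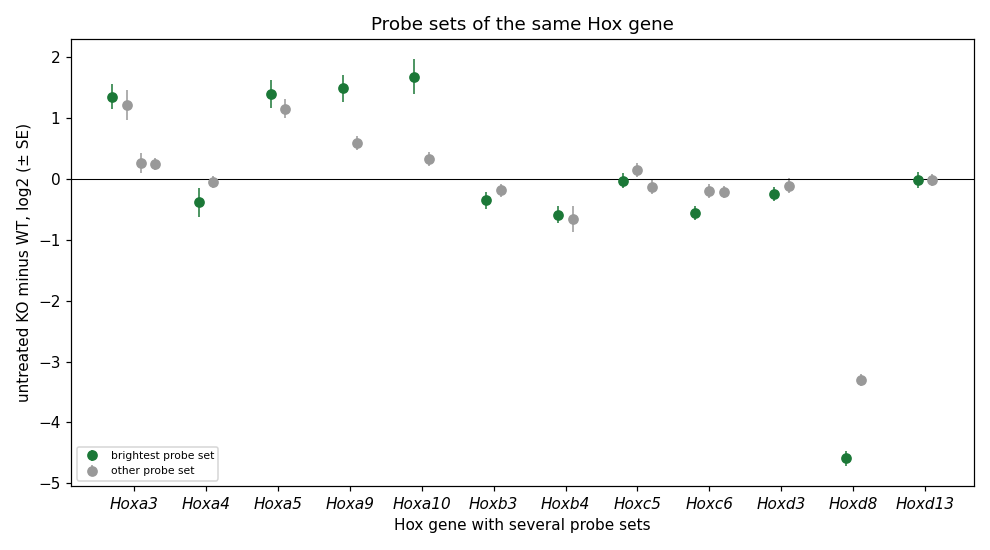
Log2 difference, KO minus WT without arsenite, on every probe set of the Hox genes with several; green points are the brightest sets and grey points the others, with limma standard errors as bars. For Hoxa3, Hoxa9, Hoxa10 and Hoxc6 dimmer sets show smaller differences than the brightest (Hoxa10: 1.68 and 0.34). The dimmer Hoxa10 set lay under 5.35 in every group.

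Under arsenite KO cells were again set against WT cells, on the 6 treated arrays of the same populations. The pattern by cluster was seen again: 7 HoxA genes and Hoxd1 were higher in KO cells, and 5 HoxB, 2 HoxC and 3 HoxD genes were lower. In all 18 of 35 members passed, where 21.1% of all genes did, with 10.3% higher and 10.8% lower. Arrays did not overlap for 20 members, 9 higher and 11 lower in KO cells, where 34.3% of all genes did not overlap (18.6% higher and 15.7% lower). The median difference of the members was -0.04, beside 0.03 over all genes. The 15 genes called without arsenite were all called here in the same direction, which is 100% of that list and 83.3% of this one. The share of all genes called in both comparisons was not counted, so this overlap is not set apart from that of other genes. Hoxb3, Hoxc13 and Hoxd1 were called here and not without arsenite. No test of the difference between the comparisons passed for them (limma, lowest adjusted p = 0.581, for Hoxd1).

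The genes with the largest falls were again the lowest relative to WT cells. Hoxd8 read 4.69, 4.95 and 4.75 in KO arsenite cells, against 9.03, 8.89 and 9.13 in WT arsenite cells. Hoxb5 read 4.24, 4.63 and 5.02 in KO arsenite cells, against 8.26, 8.05 and 8.90 in WT arsenite cells. Hoxb6 read 6.10, 6.29 and 6.33 in KO arsenite cells, against 10.01, 9.60 and 10.35 in WT arsenite cells. The groups were wide apart on every array. Hoxd8 fell by 4.22 ± 0.12 (SE; adjusted p = 1.70e-09, limma), Hoxb5 by 3.77 ± 0.26 (adjusted p = 2.37e-06, limma) and Hoxb6 fell by 3.75 ± 0.19 (adjusted p = 2.25e-07, limma). The falls of Hoxd8 and Hoxb5 may be lower bounds. Hoxb9 read 6.87, 6.32 and 7.02 in KO arsenite cells, against 9.91, 10.02 and 10.68 in WT arsenite cells, and fell by 3.47 ± 0.29 (adjusted p = 9.66e-06, limma). Hoxd9 read 5.92, 6.15 and 5.94 in KO arsenite cells, against 6.78, 6.80 and 7.02 in WT arsenite cells, and fell by 0.86 ± 0.18 (adjusted p = 0.00487, limma). Hoxd4 read 4.83, 4.83 and 4.74 in KO arsenite cells, against 5.63, 5.72 and 5.51 in WT arsenite cells. All 3 KO arrays of Hoxd4 were below the WT arrays, with a fall of 0.82 ± 0.11 (adjusted p = 0.000218, limma). The set that lists Hoxb7 and Hoxb8 together read 4.99, 5.11 and 5.40 in KO arsenite cells, against 8.15, 8.01 and 8.52 in WT arsenite cells.

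The largest rise under arsenite was that of Hoxa3. It read 8.67, 8.24 and 8.95 in KO arsenite cells, against 6.89, 6.51 and 6.84 in WT arsenite cells, a rise of 1.88 ± 0.21 (SE; adjusted p = 7.81e-05, limma). Hoxa10 read 6.79, 6.12 and 5.99 in KO arsenite cells, against 4.79, 4.80 and 4.73 in WT arsenite cells, a rise of 1.52 ± 0.29 (adjusted p = 0.00270, limma). Hoxa9 read 7.53, 8.37 and 8.10 in KO arsenite cells, against 6.87, 7.09 and 6.81 in WT arsenite cells, a rise of 1.07 ± 0.23 (adjusted p = 0.00526, limma). These genes had every KO array above every WT array, as had Hoxa2, Hoxa5 and Hoxa7. Hoxa2 read 8.14, 7.06 and 7.79 in KO arsenite cells, against 6.64, 6.05 and 6.69 in WT arsenite cells, a rise of 1.20 ± 0.31 (adjusted p = 0.0172, limma). Hoxa5 read 10.16, 9.21 and 10.35 in KO arsenite cells, against 8.89, 8.92 and 8.92 in WT arsenite cells, a rise of 1.00 ± 0.23 (adjusted p = 0.00961, limma). Hoxa7 rose by 0.66 ± 0.22 (adjusted p = 0.0498, limma). The other probe sets gave smaller differences under arsenite. They were 0.01 for Hoxa10, 0.15 for Hoxa9, 0.79 for Hoxa5, and 1.82, -0.09 and 0.15 for Hoxa3. The Hoxa10 set at 0.01 and the Hoxa3 set at -0.09 lay under 5.35 in every group.

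The smaller calls were Hoxb3 (-0.51), Hoxb4 (-0.48), Hoxc6 (-0.48) and Hoxc13 (-0.53), and Hoxd1 at 0.26, whose group means all lay under 5.35. The other probe sets gave -0.01 and -0.21 for Hoxc6, -0.26 for Hoxb3 and -0.76 for Hoxb4. Hoxb2 (-0.38) and Hoxb1 (-0.31) passed only with the replicate block, which called 20 members (30.2% of all genes). Of the 18 genes, 10 passed whichever array was left out. Hoxa2 was lost without KO arsenite replicates 1 or 3 or WT arsenite replicate 2 (0.97 to 1.14), and Hoxc6 without WT arsenite replicates 2 or 3 (-0.43 each). Hoxb3 was lost without KO arsenite replicates 2 or 3 or WT arsenite replicates 1 or 3 (-0.49 to -0.42). Hoxb4 was lost without WT untreated replicate 2, KO arsenite replicates 1 or 2 or WT arsenite replicate 3 (-0.48 to -0.31), and Hoxc13 without KO arsenite replicates 1 or 3 or WT arsenite replicates 2 or 3 (-0.54 to -0.39). Hoxa7 was lost without any array but KO untreated replicate 3, KO arsenite replicate 2 and WT arsenite replicate 3 (0.41 to 0.73), and Hoxd1 without any but KO untreated replicates 1 and 2 (0.23 to 0.29). Without KO arsenite replicate 3 the count was 12. It was also 12 without both KO arrays of experiment 1, whose Dcn and Lum signals stood apart, while the count without arsenite was 15 then as well. That setting was chosen after seeing the data. The shares of all genes called with arrays left out were not counted.

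In WT cells the effect of arsenite was read within the genotype that carries GADD34. Hoxa3 and Hoxd4 fell and no member rose, so 2 of 35 members passed, where 2.12% of all genes did, with 1.65% higher and 0.477% lower. Hoxa3 read 6.89, 6.51 and 6.84 in WT arsenite cells, against 7.91, 7.27 and 8.00 in WT untreated cells. Hoxd4 read 5.63, 5.72 and 5.51 in WT arsenite cells, against 6.20, 6.13 and 6.04 in WT untreated cells. In both genes all treated arrays were below all untreated ones. Hoxa3 fell by 0.98 ± 0.21 (SE; adjusted p = 0.0337, limma) and Hoxd4 by 0.51 ± 0.11 (adjusted p = 0.0290, limma). Arrays did not overlap for 9 members, 2 higher and 7 lower under arsenite, where 20.5% of all genes did not overlap (9.84% higher and 10.6% lower). All 10 HoxA members had a negative difference, with a median of -0.34, against a median of -0.12 over the 35 members and -0.01 over all genes. With the replicate block 4 members fell, where 4.88% of all genes passed and 1.79% fell. Those added were Hoxa9 (-0.74; adjusted p = 0.162 without and 0.0146 with the block, limma) and Hoxb4 (-0.47; adjusted p = 0.170 without and 0.0482 with it). Neither call held whichever array was left out. That of Hoxd4 was lost without any of the 6 WT arrays (adjusted p from 0.0602 to 0.131, limma). That of Hoxa3 was lost without KO untreated replicates 1 or 3, WT untreated replicates 1 or 3 or any WT arsenite array (adjusted p from 0.0507 to 0.168, limma). The 4 probe sets of Hoxa3 gave -0.98, -1.10, 0.09 and -0.08, and the set at 0.09 lay under 5.35 in every group.

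In KO cells Hoxa9 fell with arsenite and no member rose on its brightest probe set, so 1 of 35 passed, where 7.55% of all genes did, with 3.74% higher and 3.80% lower. Hoxa9 read 7.53, 8.37 and 8.10 in KO arsenite cells, against 8.80, 9.53 and 9.15 in KO untreated cells, with all treated arrays below the untreated ones. It fell by 1.16 ± 0.23 (SE; adjusted p = 0.00911, limma), and its other probe set gave -0.35. With only the arrays of the compared groups its adjusted p was 0.0786 (limma), and 0.244 by the p-values of the authors' deposited table, adjusted. Among the dimmer sets of other members, that of Hoxd8 rose by 0.45 ± 0.10 (adjusted p = 0.0173 over probe sets, limma), against 0.06 on the brightest, and that of Hoxa5 fell by 0.62 ± 0.16 (adjusted p = 0.0361 over probe sets, limma). Arrays did not overlap for 8 members, 3 higher and 5 lower under arsenite, where 23.6% of all genes did not overlap (14.0% higher and 9.68% lower). Of the 10 HoxA members 9 had a negative difference, with a median of -0.47, against 0.02 over the 35 members and 0.03 over all genes. With the replicate block 5 members fell, all in HoxA, where 14.7% of all genes passed and 8.07% fell. They were Hoxa9 (adjusted p = 0.000533 with the block, limma), Hoxa7 (-0.53; adjusted p = 0.179 without and 0.00854 with it), Hoxa2 (-0.54; 0.364 and 0.0111), Hoxa3 (-0.46; 0.238 and 0.0212) and Hoxa5 (-0.78; 0.0697 and 0.0244). Without KO arsenite replicate 3 the count without a block was 4, and the share of all genes there was not counted. Hoxb5, Hoxb6 and Hoxb9, low in KO cells, differed by 0.23, 0.45 and 0.40 and did not pass.

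**Figure D4:**
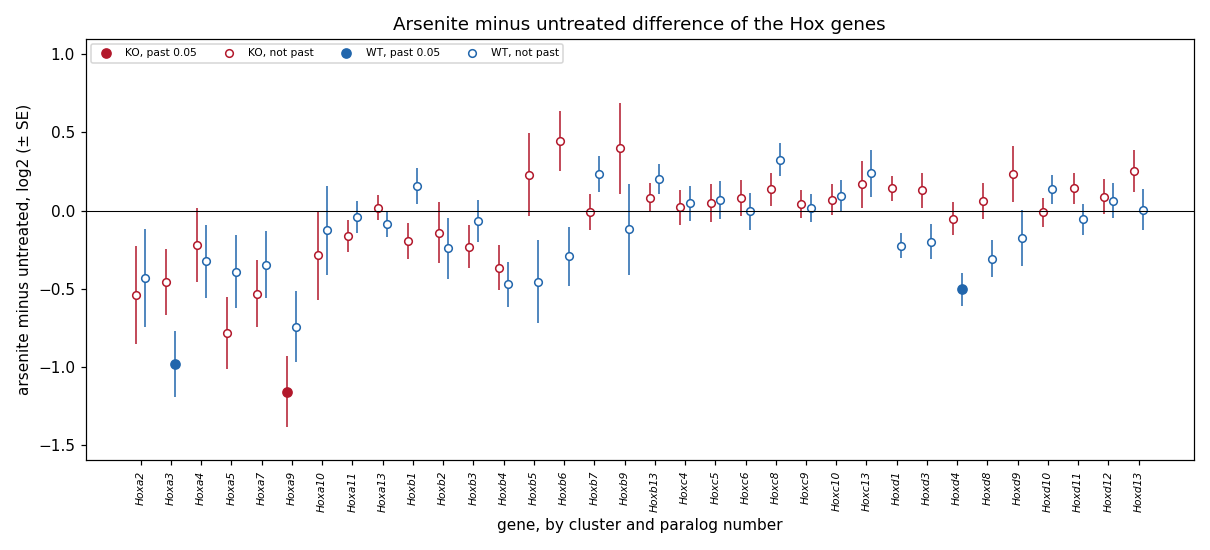
Log2 difference, arsenite minus untreated, of 34 Hox genes by cluster and paralog number in KO and WT cells; points are limma estimates from 3 arrays a group, bars are standard errors and filled points passed an adjusted p of 0.05. The HoxA genes sit mostly below 0 in both genotypes (medians -0.47 in KO and -0.34 in WT cells). HoxC genes run from 0.02 to 0.17 in KO and from -0.01 to 0.33 in WT cells, and none passed.

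Whether the arsenite response itself differed between genotypes was tested as KO response minus WT response. No member passed, in the fit without a block or with it, where 0.0337% and 0.0578% of all genes did. At an unadjusted p under 0.05, 4 of 35 members lay under the threshold in limma without the block, where 5.88% of all genes did. Differences ran from -0.42 for Hoxa9 to 0.74 for Hoxb6. So a fall called in only 1 genotype, as for Hoxa3, Hoxd4 and Hoxa9, was not shown to differ from the other genotype: the differences were 0.52 ± 0.30 for Hoxa3 (SE; adjusted p = 0.973, limma), 0.45 ± 0.15 for Hoxd4 (adjusted p = 0.602) and -0.42 ± 0.32 for Hoxa9 (adjusted p = 0.999).

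Genes flanking the clusters were read as well. Of 19 measured neighbours and cluster noncoding genes, 1 was higher and 0 were lower in KO untreated cells, where 9.83% of all genes were higher and 10.3% lower. It was Hibadh, a valine-breakdown enzyme gene near HoxA, at 0.39 ± 0.12 (SE; adjusted p = 0.0364, limma). With the replicate block 2 were higher and 1 lower, where 29.2% of all genes passed. Under arsenite 1 was higher and 2 were lower, Hibadh at 0.42, the heterochromatin gene Cbx5 at -0.68 and the stress factor gene Nfe2l1 at -0.40. Next to HoxD, Evx2, Mtx2 and Lnpk differed by -0.10, -0.01 and 0.07 in KO untreated cells, and next to HoxB Skap1 differed by -0.17; these genes were picked after their values were seen. With arsenite, the DNA repair gene Smug1 near HoxC fell by 0.71 in KO cells and by 0.82 in WT cells, and Cbx5 fell by 0.78 in KO cells.

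TALE homeodomain proteins bind DNA together with Hox proteins. Of 10 measured, 3 were higher and 0 lower in KO cells, both untreated (9.83% of all genes higher and 10.3% lower) and under arsenite (10.3% higher and 10.8% lower). With the replicate block 5 were higher and 1 lower untreated, where 29.2% of all genes passed. In the arsenite groups 5 were higher and 0 lower with it, where 30.2% passed. Meis1 rose by 1.64 ± 0.26 (SE; adjusted p = 0.00103, limma), Meis2 by 1.21 ± 0.12 (adjusted p = 4.22e-05) and Pbx3 by 0.91 ± 0.27 (adjusted p = 0.0318) in KO untreated cells. Under arsenite the 3 were Meis1 (1.22), Meis2 (1.00) and Pbx2 (0.58). With arsenite the repressor gene Tgif1 rose by 1.14 ± 0.21 in KO cells (adjusted p = 0.00711, limma) and by 1.26 ± 0.21 in WT cells (adjusted p = 0.00786).

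Polycomb and MLL genes regulate the chromatin of the clusters. Of 19 Polycomb genes, 5 were higher and 3 lower in KO untreated cells, where 20.1% of all genes passed. Under arsenite 5 were higher and 5 lower in KO cells, where 21.1% of all genes passed. With the replicate block 5 were higher and 4 lower untreated (29.2% of all genes passed), and 5 higher and 6 lower under arsenite (30.2%). Cbx7 and Cbx6, which read trimethylated H3K27, fell by 1.53 ± 0.21 (SE; adjusted p = 0.000326, limma) and 1.06 ± 0.19 (adjusted p = 0.00201) in KO untreated cells. Rnf2, the ubiquitin ligase of the complex, rose by 1.08 ± 0.14 (adjusted p = 0.000267, limma). Of 9 MLL complex and H3K27 demethylase genes, 2 were higher and 0 lower in KO cells in both conditions, near the shares of all genes (20.1% untreated and 21.1% under arsenite). With the replicate block 5 and 4 were higher, where 29.2% and 30.2% of all genes passed. The KO untreated genes were Ash2l (0.50) and Men1 (0.48), and those under arsenite were Kmt2b (0.60) and Men1 (0.52). The demethylase genes Kdm6b and Kdm6a rose with arsenite, Kdm6b by 2.03 ± 0.22 in KO cells and 2.15 ± 0.22 in WT cells (adjusted p = 0.000320 and 0.000372, limma). Kdm6a rose by 0.88 ± 0.22 in KO cells and 1.09 ± 0.22 in WT cells (adjusted p = 0.0311 and 0.0243, limma).

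Of 18 measured retinoic acid and caudal genes, 1 was higher and 2 were lower in KO untreated cells, and 2 were higher and 3 lower under arsenite. These counts lie near the shares of all genes, 20.1% untreated and 21.1% under arsenite. Cyp26b1, the enzyme that breaks down retinoic acid, averaged 11.1 ± 0.3 in KO untreated and 6.06 ± 0.33 in WT untreated cells (SD, n = 3 each), a rise of 5.02 ± 0.21 (SE; adjusted p = 4.82e-08, limma). Under arsenite its difference was 4.84 ± 0.21 (adjusted p = 6.81e-08, limma). The retinoid carrier gene Crabp2 fell by 0.95 ± 0.19 (adjusted p = 0.00378, limma) in KO untreated cells. Whether these differences bear on those of the Hox genes was not tested.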

How the data were processed

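Per the file headers, the 12 samples were hybridised to Affymetrix Mouse430_2 arrays. The deposited log2 values came from RMA, per the submitters' processing notes, which give no version. The full table (45101 probe sets) also holds p-values deposited by the authors; which test gave them is not given in the sources. Array groups came from the full table, whose named mean columns equal the means of single array codes within a tolerance of 1e-06. A shorter deposited table carries sample labels, of which 10 of 12 stand over another array's values, and it served only as an alternative. No per-array column was left unused.

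Of 38130 probe sets with 1 symbol, the brightest per gene gave 20753 genes. A single limma 3.58.1 model (R 4.3.3) of the 4 groups, without a block, gave every comparison. Moderated tests were two-sided, with Benjamini-Hochberg adjustment over all genes within each of 5 comparisons and a threshold of 0.05. The number of arrays limits the precision. The fit was tested on simulated data whose arrays were drawn independently, so that test does not cover the pairing described next. Array values less their group means correlated at 0.231 to 0.738 in 18 pairs with the same replicate number and at -0.575 to -0.0106 in 36 pairs with different numbers. The numbers, which mark the replicate experiments, therefore pair the arrays, and block values are given where they change the call of a member. For the other lists only block counts of KO against WT cells are given, where they differ. All Hox members were to be named, and of each other list up to 3 called genes with the largest change per comparison; a few of these genes are counted but not reported here. The members, lists and tests were chosen with earlier results of these data known. Alternatives were the replicate block, renormalisation, centring, a filter on dim genes, other probe sets, fewer arrays, another spread, a stricter threshold, the authors' p-values and the shorter table's labels.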

Additional observations from a re-analysis of the deposited data

Results flagged for a closer look

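The arsenite response of 3 members ran in opposite directions in the 2 genotypes in every replicate experiment, up in 3 of 3 KO experiments and down in 3 of 3 WT experiments. The share of all genes with such a pattern was not counted, so the count is not a result about the members. For Hoxb6 the KO response minus the WT response was 0.74 ± 0.27 (SE), with an adjusted p of 0.680 in limma. Hoxd8 gave 0.37 ± 0.17 (adjusted p = 0.839, limma), and Hoxd1 0.37 ± 0.11 (adjusted p = 0.581, limma). None passed the test of the difference, with the replicate block or without it. Hoxb6 read 6.10, 6.29 and 6.33 in KO arsenite cells, against 5.98, 5.87 and 5.53 in KO untreated cells, and 10.01, 9.60 and 10.35 in WT arsenite cells, against 10.32, 10.01 and 10.51 in WT untreated cells. The Hoxd8 signal in KO cells, where its arsenite response averaged 0.06, and the Hoxd1 signal in every group lay under 5.35. Groups of 3 arrays were not tested for single outlying arrays.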

How the results depend on the processing

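Through the alternatives 36 calls of Hox genes were followed. All 36 held with the replicate block and with a trended, robust spread. Of the 36 calls, 35 held with renormalisation, with centring and without cross-hybridising probe sets, 33 with the mean over probe sets, 30 with only the arrays of the compared groups, 22 at an adjusted p under 0.01 and 29 without both KO arrays of experiment 1. Without dim genes 35 of 35 held, and with the authors' p-values, adjusted, 9 of 18.

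The replicate block raised the counts to 5 for arsenite in KO cells and 4 for arsenite in WT cells, and changed no other count by more than 1.5 times. By the authors' adjusted p the counts were 9 for KO against WT untreated and 0 for arsenite in either genotype. At an adjusted p under 0.01 they were 10 for KO against WT under arsenite and 0 for arsenite in WT cells. The mean over probe sets gave 2 for arsenite in KO cells and 1 in WT cells; Hoxa3 in WT cells was lost at -0.52 (adjusted p = 0.141, limma). With the arrays of the compared groups alone, arsenite in KO cells gave 0. Grouping the arrays by the shorter table's labels gave 0 in all 4 comparisons between groups, and turned Hoxb4 in KO against WT untreated cells to 0.00646, since those labels mix the groups. Leaving out 1 array gave counts of 14 to 16 for KO against WT untreated, 12 to 18 for KO against WT under arsenite, 1 to 4 for arsenite in KO, 0 to 2 for arsenite in WT cells and 0 for the difference of responses. Beyond the main fit and the block, the share of all genes called was not counted. These changes in the counts of members are therefore not set apart from changes over all genes. Differences whose lower mean lay under 5.35 may be lower bounds, and whether such means lay at background was not tested.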

Other observations

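Other transcription factors that mark position in the limb and body wall also differed between genotypes. Of 12 measured, 2 were higher and 4 lower in KO cells, both untreated and under arsenite, at an adjusted p under 0.05 (limma), where 20.1% of all genes passed untreated and 21.1% under arsenite. With the replicate block 2 were higher and 5 lower untreated, where 29.2% of all genes passed. Tbx18, a gene of epicardium, somites and limb mesenchyme, averaged 4.51 ± 0.23 in KO untreated and 9.50 ± 0.12 in WT untreated cells (SD, n = 3 each), and fell by 4.99 ± 0.17 (SE; adjusted p = 7.93e-09, limma). Foxf1, a gene of splanchnic mesoderm, fell by 4.58 ± 0.21 (adjusted p = 8.54e-08, limma). Tbx15, a gene of dorsal skin and limb skeleton, rose by 2.61 ± 0.15 (adjusted p = 5.52e-07, limma). Under arsenite Tbx18 fell by 4.56, Foxf1 by 4.23 and Shox2, a proximal limb gene, by 2.42 in KO cells. Among noncoding genes of the clusters outside the rule, Hoxb3os differed by -0.03 in KO untreated and 0.12 in KO arsenite cells, each relative to WT cells.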
